A study of Mus musculus with 6 samples.

Results

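Granzymes, perforin and Fas ligand are the molecules with which cytotoxic lymphocytes kill other cells, and 7 genes of this machinery were read here in RNA of splenic red pulp macrophages: Gzma, Gzmb, Gzmk, Gzmm, Prf1, Nkg7 and Fasl. They were 7 of the 20018 genes that could be named on the array and were represented by 9 of its 55681 probes. Of these, 8 carried a RefSeq accession that maps to one of the 7 genes, and the other, Gzmk probe A_55_P2042331, carried an Ensembl transcript name in the scanner output and was called Gzmk only in the authors' deposited table. A probe was tested when at least 3 of the 6 arrays read it well above background, and all 9 were among the 23032 tested probes. The 7 genes were chosen with their knockout-minus-wild-type differences known, so these differences are given as a description with no test.

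The Bach2 knockout group was 3 male C57BL/6 mice of 8 to 9 weeks. The wild-type group was 3 C57BL/6 mice of the same age, with replicates 1 and 2 male and replicate 3 female. Bach2 encodes a repressor that sits on Maf recognition elements and is known in lymphocytes as a brake on effector differentiation. The labels state 3 independent mice a genotype, flow cytometric sorting of the macrophages and total RNA. Replicate 3 of each genotype carries the same animal tag, whose meaning is not stated. The sources used here give neither the allele nor the cells in which it is deleted, nor the sort markers, nor whether the mice were littermates. RNA of each mouse was labelled with Cy3 and read on an array of its own.

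Perforin, encoded by Prf1, is stored with granzymes in cytotoxic granules and forms pores in the membrane of a target cell, through which the granzymes, which are serine proteases, reach the cytosol. Nkg7 is a granule membrane protein of cytotoxic lymphocytes. Fasl acts by a route other than that of perforin and granzymes: it is a ligand of the tumour necrosis factor family that triggers the death receptor Fas. These genes are known as markers of NK cells and of activated CD8+ T cells. In a bulk sample, more RNA of such a gene can reflect more cells of one type or more RNA in each cell, and these cannot be told apart.

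A level is the log2 background-corrected signal relative to the 75th percentile of its array, so a level of 0 is the 75th percentile of that array. Differences are knockout minus wild type, with the SE from limma, a linear model fitted to all tested probes. The share of spots well above background ran between 37.5% and 51.5% over the arrays, and precision is limited by their number. All arrays lay on 1 slide with 1 scan time. Knockout RNA lay in row 2 of the slide and wild-type RNA in row 1, and the effects of row and genotype cannot be told apart, while each of the 3 columns held 1 mouse of each genotype. The brighter Bach2 probe read -2.24, -3.72 and -1.15 on the knockout arrays, against -0.90, 0.024 and -1.35 on the wild-type arrays. Knockout replicate 3 thus lay within the wild-type range. The second probe for Bach2 stayed near background on all arrays. Where the deletion lies relative to these probes is not given in the sources used here, so neither checks the labels. The red pulp macrophage transcription factor Spic and the adhesion molecule Vcam1 were well above background on all 6 arrays.

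Granzyme A is a tryptase that cleaves after basic residues. Gzma (probe A_55_P2094060, chromosome 13) read 6.01, 7.91 and 6.26 in knockout replicates 1, 2 and 3, against 5.36, 4.73 and 4.25 in wild-type replicates 1, 2 and 3. As multiples of the array's 75th percentile these levels were 64.5, 241 and 76.5 in knockout and 41.0, 26.6 and 19.1 in wild type. Every knockout array lay above every wild-type array, with 0.65 between the nearest pair. The knockout mean was 6.73 ± 1.03 and the wild-type mean 4.78 ± 0.55 (SD, n = 3 each), a difference of 1.95 ± 0.62 (SE) or 3.85-fold. Knockout replicate 2 stood well above its group, and without it the difference was 2.55-fold. Gzma was thus a bright probe in both genotypes, wild type included.

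Granzyme B cleaves after aspartate and activates caspases and Bid in the target cell. Gzmb (probe A_51_P333274, chromosome 14) read 3.07, 4.41 and 2.70 in knockout, against 0.82, 1.09 and -1.32 in wild type. The groups did not overlap, and the gap between the lowest knockout and the highest wild-type array was 1.60. Its mean was 3.39 ± 0.90 in knockout and 0.20 ± 1.32 in wild type (SD, n = 3 each), a difference of 3.19 ± 0.76 (SE) or 9.14-fold. Wild-type replicate 3 was low, and without it the difference was 5.40-fold. Ranked by difference, Gzmb was number 19 of the 23032 tested probes.

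Granzyme K is, like granzyme A, a tryptase, and is known from memory and effector T cells. Its probe A_55_P2042331 read 1.42, 2.52 and 1.43 in knockout, against -1.94, -2.56 and -3.17 in wild type, where it was well above background in replicates 1 and 2 only. The knockout arrays stood 3.37 or more above the highest wild-type array. The mean was 1.79 ± 0.63 in knockout and -2.56 ± 0.61 in wild type (SD, n = 3 each), a difference of 4.35 ± 0.54 (SE) or 20.4-fold, number 3 among all tested probes. With the normexp background correction it was 11.3-fold, and the wild-type mean includes the array that was not well above background.

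The other Gzmk probe, A_66_P140238, which carries the RefSeq accession of Gzmk, did not repeat this pattern. It read 0.12, -0.50 and -1.45 in knockout, against -1.10, -1.89 and -0.95 in wild type. The groups overlapped, since knockout replicate 3 was below wild-type replicates 1 and 3, and the difference was 0.71 ± 0.55 (SE) or 1.64-fold. Without replicate 3 of both genotypes it was 2.48-fold. The differences of the Gzmk probes were 3.64 apart on the log2 scale. The probe sequences were not used here, so which transcripts each probe binds was not tested, and the 20.4-fold value belongs to a probe that only the deposited table calls Gzmk. In the authors' deposited table that probe was higher in knockout by 4.34.

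Granzyme M is known from NK cells and cleaves after methionine or leucine. Gzmm (probe A_55_P2150757, chromosome 10) read -0.17, 2.53 and -0.69 in knockout, against -1.18, -1.50 and -1.48 in wild type. The groups did not overlap, but knockout replicate 2 stood far above the other two. The mean was 0.56 ± 1.73 in knockout and -1.39 ± 0.18 in wild type (SD, n = 3 each), a difference of 1.95 ± 0.80 (SE) or 3.86-fold. Without knockout replicate 2 the difference was 1.95-fold, and without knockout replicate 3 it was 5.94-fold. In the authors' deposited table Gzmm was higher in knockout by 1.94.

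The remaining granzyme genes of the mouse, Gzmc, Gzmd, Gzme, Gzmf, Gzmg and Gzmn, each had a probe, and 0 of these 6 genes was well above background on any array of either genotype. In the RefSeq gene order they lie next to Gzmb on chromosome 14, in a row that runs Mcpt8, Ctsg, Gzme, Gzmd, Gzmg, Gzmn, Gzmf, Gzmc and Gzmb. Gzmb was therefore the one granzyme of this cluster measured above background. Gzma and Gzmk are neighbours on chromosome 13, and the genes on the far sides of this pair, Gpx8 and Esm1, were each well above background on 1 array and were not tested.

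**Figure D1:**
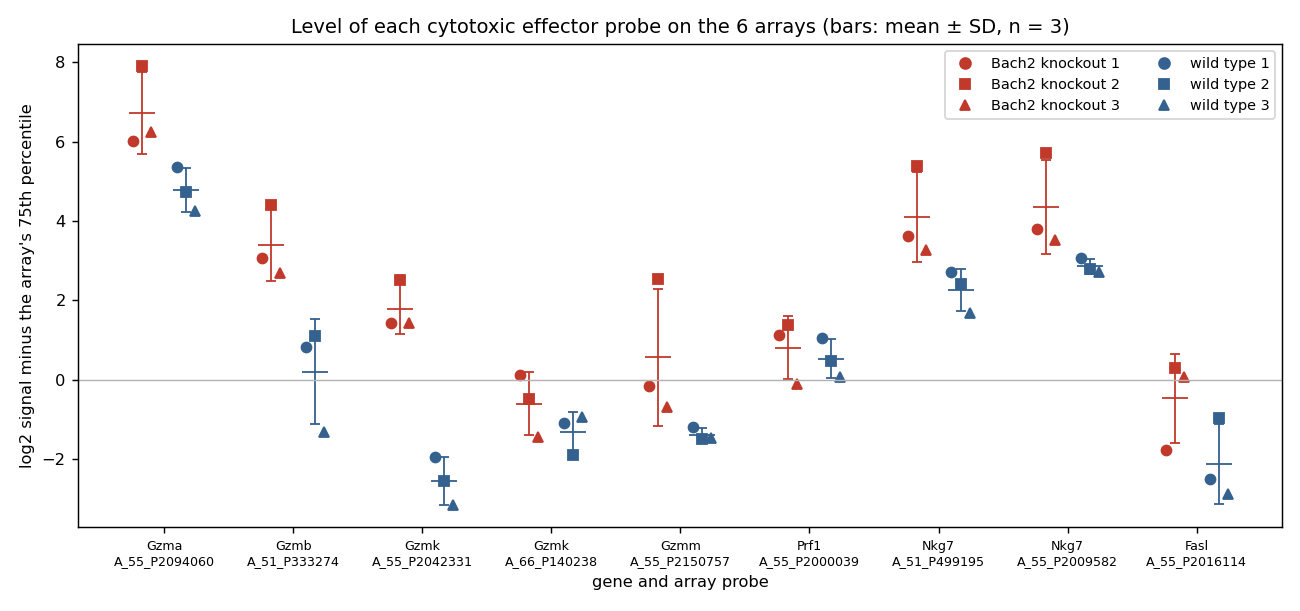
Level of each of the 9 probes on the 6 arrays, as log2 signal relative to the 75th percentile of the array, with knockout arrays in red left of wild-type arrays in blue and bars for mean ± SD over 3 mice. The groups lie apart for Gzma, Gzmb, Gzmm, Nkg7 and Gzmk probe A_55_P2042331, and overlap for Prf1, Fasl and Gzmk probe A_66_P140238; levels of different probes are not on a common scale.

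Perforin had the smallest difference of the 7 genes. Prf1 (probe A_55_P2000039, chromosome 10) read 1.13, 1.38 and -0.099 in knockout, against 1.05, 0.47 and 0.062 in wild type. The groups overlapped, and the lowest of the 6 arrays was knockout replicate 3. The mean was 0.80 ± 0.79 in knockout and 0.53 ± 0.50 in wild type (SD, n = 3 each), a difference of 0.28 ± 0.55 (SE) or 1.21-fold. Without knockout replicate 2 the difference was -0.012, so its direction rested on that mouse. Prf1 was well above background on all 6 arrays, so its level was measured in both genotypes.

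Nkg7 (chromosome 7) was read by 2 probes, which gave similar differences. Probe A_55_P2009582 read 3.80, 5.71 and 3.53 in knockout, against 3.08, 2.78 and 2.72 in wild type. Probe A_51_P499195 read 3.62, 5.39 and 3.27 in knockout, against 2.71, 2.41 and 1.69 in wild type. On both probes every knockout array was above every wild-type array, with knockout replicate 2 the highest. The differences were 1.49 ± 0.63 (SE) or 2.80-fold for the first and 1.83 ± 0.64 (SE) or 3.55-fold for the second, 0.34 apart. Without knockout replicate 2 they were 1.75-fold and 2.26-fold. The authors' deposited table holds the first probe, with a difference of 1.48.

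Fasl (probe A_55_P2016114, chromosome 1) read -1.76, 0.28 and 0.057 in knockout, against -2.52, -0.97 and -2.89 in wild type, where it was well above background on 2 of 3 arrays. Knockout replicate 1 lay below wild-type replicate 2, so the groups overlapped. The mean was -0.47 ± 1.12 in knockout and -2.13 ± 1.02 in wild type (SD, n = 3 each), a difference of 1.65 ± 0.73 (SE) or 3.14-fold. Without knockout replicate 1 it was 4.92-fold, and without replicate 3 of both genotypes 2.01-fold. Fas, the receptor of this ligand, differed by 0.43 ± 0.47 (SE).

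Taken by gene, with the brightest probe standing for genes with more than 1, all 7 genes lay above 0, beside 38.9% of all tested probes. For 5 of the 7 every knockout array was above every wild-type array, beside 1.20% of tested probes, while 1.88% of tested probes were separated in the other direction. A difference above 1 was seen for 6 of the 7, beside 3.79%. Gzmk enters these counts by probe A_55_P2042331, whose mean over all 6 arrays is the higher through its knockout levels. With the RefSeq probe in its place, 4 of the 7 genes had no overlap, 5 of the 7 had a difference above 1 and the median was 1.65. The median difference over the 7 genes was 1.95, against -0.11 over all tested probes. Since the genes were picked on this contrast, nothing is read from these shares. In the limma fit 0 of the 23032 probes passed an adjusted p of 0.05 in either direction (0% called higher, 0% lower). An unadjusted p under 0.05 was reached by 307 probes, and the smallest adjusted p of any probe was 0.343. The count of 7 genes above 0 was the same with arrays scaled to their median and with quantile normalization.

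**Figure D2:**
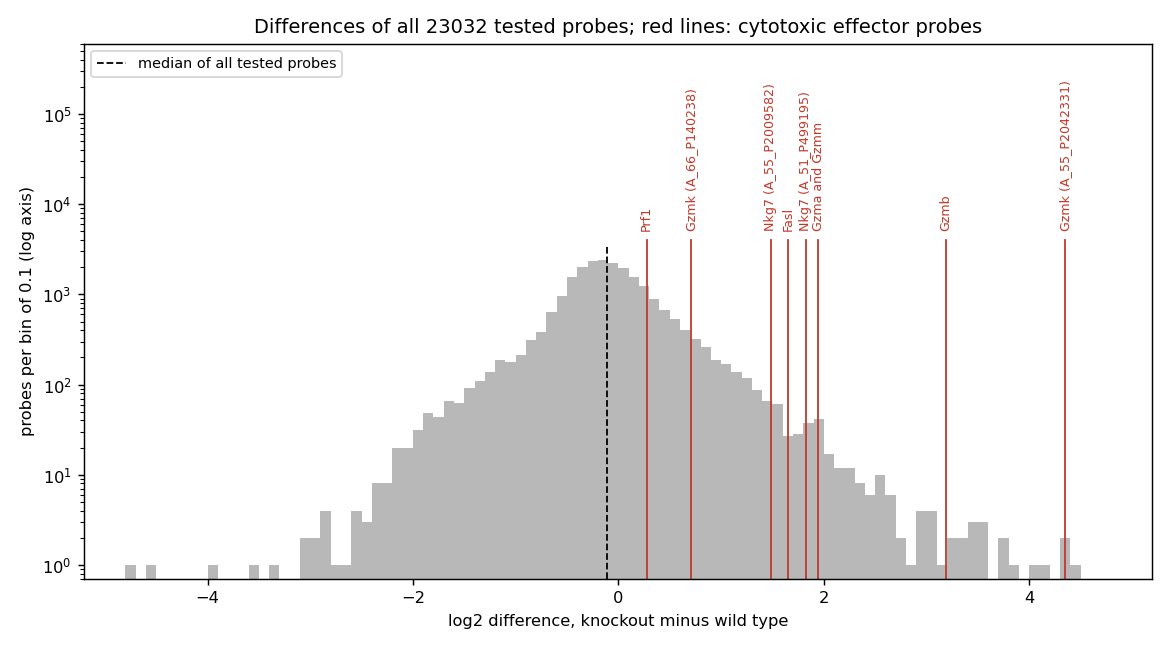
Distribution of the log2 difference, knockout minus wild type, over all 23032 tested probes in bins of 0.1 on a log count axis, with red lines at the 9 probes of the 7 genes. Gzmb and Gzmk probe A_55_P2042331 lie in the sparse right tail at 3.19 and 4.35, Prf1 lies at 0.28 within the bulk, and the dashed line marks the median of all probes at -0.11.

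The columns of the slide allow a comparison of 1 knockout with 1 wild-type mouse at a time. The median difference over the 7 genes was 0.75 in column 1, 3.18 in column 2 and 2.0 in column 3. Over all tested probes the medians were -0.14, -0.16 and 0.038. For 6 of the 7 genes knockout was higher in all 3 columns, as for 7.11% of tested probes, and the exception was Prf1, with differences of 0.080, 0.91 and -0.16. With the RefSeq probe standing for Gzmk, at -0.49 in column 3, it was 5 of the 7. Gzmb differed by 2.24, 3.32 and 4.02 and Gzmk probe A_55_P2042331 by 3.37, 5.08 and 4.60, so for both the difference was above 2 in each column. Gzma differed by 0.65, 3.18 and 2.0, and Fasl by 0.75, 1.25 and 2.95. The size of the difference thus varied several-fold between columns.

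**Figure D3:**
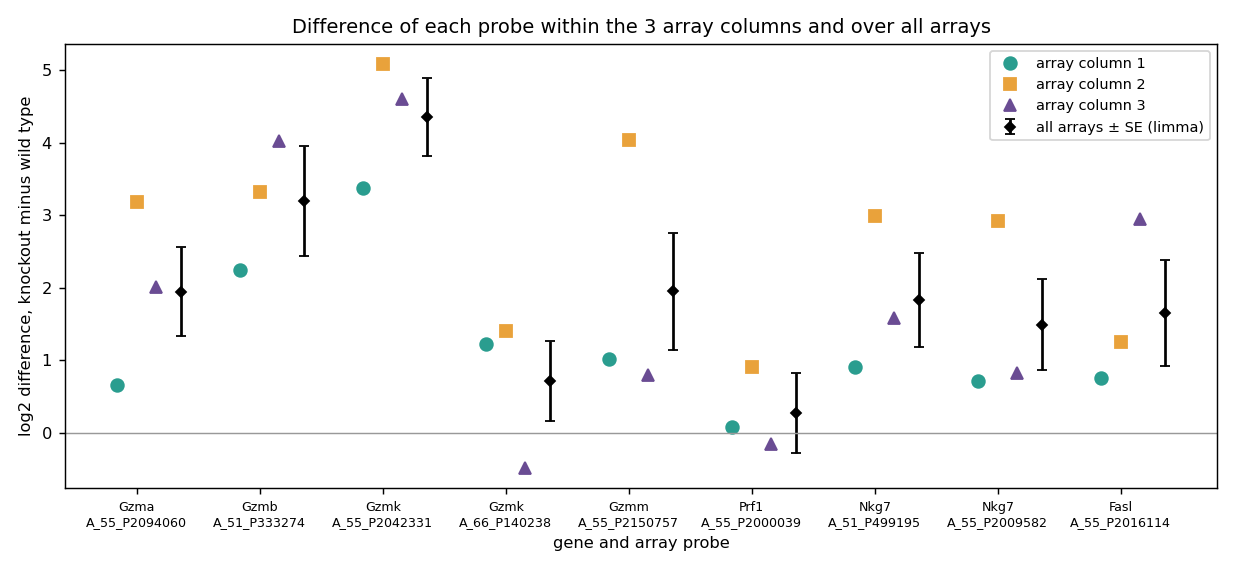
Log2 difference, knockout minus wild type, of each of the 9 probes within array columns 1, 2 and 3 (coloured symbols) and over all arrays with its limma SE (black). Differences are above 0 in every column for all probes but Prf1 and Gzmk probe A_66_P140238, which lie at -0.16 and -0.49 in column 3.

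Knockout replicate 2 was the highest array for all 7 genes, and wild-type replicate 3, the female mouse, was the lowest for 5 of them. Gzmk is read here, and in the profiles below, by probe A_55_P2042331. Its RefSeq probe was highest in knockout replicate 1 and lowest in wild-type replicate 2. The array of wild-type replicate 3 also had the lowest 75th percentile signal, 764, and the smallest share of spots well above background, 37.5%. The highest 75th percentile signal, 2664, was that of knockout replicate 3. Whether sex or array signal bears on these levels was not tested. With each gene centred on its 6 arrays, the mean over the 7 genes was 0.54, 2.15 and 0.50 in knockout replicates 1, 2 and 3, against -0.72, -0.81 and -1.65 in wild-type replicates 1, 2 and 3. Of the marker lists described below, those of NK, T, plasma cells, neutrophils, and mast cells and basophils were also highest in knockout replicate 2. The other marker lists were not. Wild-type replicate 3 was lowest for the NK, T, neutrophil and conventional dendritic cell lists only. Among the 7 genes, Gzma and Nkg7 ran closest together, with a root mean square difference of 0.36 between their centred profiles over the 6 arrays. Gzmm and Nkg7 followed at 0.39 and Gzma and Gzmm at 0.51, whereas Gzmk and Prf1 were farthest apart at 2.07. The same measure over 11372 other named genes placed Sh2d1a nearest to the mean profile of the 7 genes at 0.16, followed by Cxcr6 at 0.33, Prkcq at 0.41 and Ms4a4b at 0.41. Nearest to Gzma were Sh2d1a at 0.33, Lck at 0.37, Slc39a4 at 0.39 and Adora2a at 0.42. Nearest to Gzmb were Wdr95 at 0.62, Sh2d1a at 0.69, Cxcr6 at 0.71 and Chil1 at 0.79. These are likenesses over 6 arrays that share the scaling of each array and are given as a description.

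The 250 bases upstream of each RefSeq start were read for all 7 genes, with a pair of starts for Gzmm and 1 for each of the others, as a possible common element of genes that differed in the same direction. The windows are from mouse assembly GRCm38.p6, and 5 are shown. Those of Gzmk, by probe A_55_P2042331 and not by its RefSeq probe, and of Gzmb were taken for the largest differences among the 7. Those of Gzma and Nkg7 were taken for the closest profiles, and that of Prf1 for the smallest difference. They lie at chr13:113180966-113181215 on the minus strand for Gzmk, chr14:56262335-56262584 on the minus strand for Gzmb, chr13:113100982-113101231 on the minus strand for Gzma, chr7:43436888-43437137 on the plus strand for Nkg7 and chr10:61297586-61297835 on the plus strand for Prf1. Each runs 5′ to 3′ towards its gene, and capitals mark every match of the 5 motifs named in the next paragraph.
Gzmk: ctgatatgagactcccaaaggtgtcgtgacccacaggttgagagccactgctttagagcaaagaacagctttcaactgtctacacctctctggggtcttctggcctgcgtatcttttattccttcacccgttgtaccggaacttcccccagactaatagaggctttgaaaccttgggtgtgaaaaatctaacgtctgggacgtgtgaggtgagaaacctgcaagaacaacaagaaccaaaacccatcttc
Gzmb: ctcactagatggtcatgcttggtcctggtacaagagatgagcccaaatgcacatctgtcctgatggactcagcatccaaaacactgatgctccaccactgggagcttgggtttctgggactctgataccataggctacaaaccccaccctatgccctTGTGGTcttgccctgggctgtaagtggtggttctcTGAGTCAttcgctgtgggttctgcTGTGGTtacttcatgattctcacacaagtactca
Gzma: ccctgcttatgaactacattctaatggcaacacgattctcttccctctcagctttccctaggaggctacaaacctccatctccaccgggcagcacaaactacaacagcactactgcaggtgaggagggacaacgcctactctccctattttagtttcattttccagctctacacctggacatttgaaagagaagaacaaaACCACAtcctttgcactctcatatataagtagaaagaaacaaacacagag
Nkg7: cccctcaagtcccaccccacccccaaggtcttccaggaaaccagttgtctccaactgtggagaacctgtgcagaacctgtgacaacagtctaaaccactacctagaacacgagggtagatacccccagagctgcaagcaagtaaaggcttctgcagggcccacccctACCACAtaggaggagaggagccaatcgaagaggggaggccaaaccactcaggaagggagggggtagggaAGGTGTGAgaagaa
Prf1: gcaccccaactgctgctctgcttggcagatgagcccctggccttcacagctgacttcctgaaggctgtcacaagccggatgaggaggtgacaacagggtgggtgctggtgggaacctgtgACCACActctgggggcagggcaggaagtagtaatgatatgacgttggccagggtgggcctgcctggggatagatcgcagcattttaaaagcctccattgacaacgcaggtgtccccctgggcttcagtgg

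Motifs were searched on both strands in these windows and in the same window of 32851 mouse promoters. The AP-1 motif TGANTCA occurs in 6.75% of all these promoters, and among the 7 genes in Gzmb only, as TGAGTCA with its 5′ end 58 bases upstream of the start. The Maf recognition element with an AP-1 core, TGC followed directly by the AP-1 motif, which therefore overlaps it and is the class of site that BACH proteins bind with small Maf partners, occurs in 0.353% of promoters and in 0 of the 7 genes. The cyclic AMP response element core TGACGTCA occurs in 1.55% of promoters and in 0 of the 7. The Runx core TGTGGT occurs in 14.05% of promoters and in 5 of the 7 genes: in Gzmb 93 and 34 bases upstream, in Gzma 50, in Nkg7 83, in Prf1 130 and in Gzmm 247 bases upstream of its first listed start. The T-box site TCACACCT occurs in 1.12% of promoters and in Nkg7, on the other strand as AGGTGTGA 14 bases upstream. Gzmk and Fasl held none of the 5 motifs. A match is a string in a window and not a bound site, and Prf1, with a difference of 0.28, shares the Runx core with Gzmb.

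For the other genes, the protein-coding neighbours give a local comparison. Gzmm lies between Cdc34, which differed by 0.023 ± 0.51, and Bsg, which differed by 0.032 ± 0.81 (SE). Fasl lies between Tnfsf18 at 0.014 ± 0.81 and Suco at -0.087 ± 0.83 (SE). Next to Nkg7, Cldnd2 differed by -0.15 ± 0.62 (SE), and no array read Lim2 well above background. Prf1 lies between Adamts14 at 1.18 ± 0.78 and Pald1 at -0.25 ± 0.50 (SE), so here one neighbour differed by more than the gene.

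Lists of the rest of the granule pathway had median differences between -0.26 and 0.62, and 0 genes of these or of the marker lists passed the test. Of 9 genes that package or process granzymes, 3 lay above 0 and 6 below, with a median of -0.13. Srgn, the proteoglycan of the granule matrix, differed by 0.13 ± 0.48, and Ctsc, the dipeptidyl peptidase that activates granzymes, by -0.29 ± 0.44 (SE). Cst7, an inhibitor of granule cathepsins, differed by 0.63 ± 0.59, and the cathepsin Ctsh by -0.31 ± 0.45 (SE). Only Ctsw, a cathepsin known from NK and CD8+ T cells, had all knockout arrays above all wild-type arrays, as 1.20% of tested probes did.

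Of 13 genes of granule docking and release, 11 were tested, with 3 above 0 and 8 below and a median of -0.26. Rab27a, the small GTPase that docks cytotoxic granules, differed by 1.33 ± 0.71 (SE), or 1.99 without knockout replicate 1. Its partner in priming, Unc13d, differed by -0.26 ± 0.60, the syntaxin Stx11 by -0.36 ± 0.48 and the syntaxin-binding protein Stxbp2 by -0.33 ± 0.47 (SE). These genes are also used by other secreting cells. Of 7 serpin inhibitors of granzymes, 3 were tested. Serpinb9, which inhibits granzyme B, differed by 0.26 ± 0.48, Serpinb6b by 0.61 ± 0.49 and Serpinb6a by -0.31 ± 0.48 (SE).

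The 9 genes of the list of death ligands and receptors had a median of 0.0075, with 5 above 0 and 4 below. The death ligand Tnfsf10 (TRAIL) differed by 0.83 ± 0.64, its receptor Tnfrsf10b by -0.52 ± 0.64 and the adaptor Fadd by 0.53 ± 0.49 (SE). Of 12 granzyme substrates and genes of the death machinery, 11 were tested, with 4 above 0 and 7 below and a median of -0.14. Bid, a substrate of granzyme B, differed by 1.06 ± 0.57, and the nuclease subunit Dffb by 0.53 ± 0.47 (SE). The nuclease inhibitor Dffa differed by -0.00013 ± 0.61, and Set, a substrate of granzyme A, by -0.14 ± 0.53 (SE).

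Among factors and cytokines that drive cytotoxic genes, 9 of 11 were tested, with 8 above 0, 1 below and a median of 0.62. The T-box factor Tbx21 differed by 0.62 ± 0.61, and the related factor Eomes by 1.10 ± 0.48 (SE). Without knockout replicate 2 the Tbx21 difference was 0.027. Runx3 differed by 0.36 ± 0.62, or 0.98 without wild-type replicate 2, and Prdm1 by 0.12 ± 0.53 (SE). Eomes, Il18r1 and Ifng each had all knockout arrays above all wild-type arrays, beside 1.20% of tested probes, and Il18r1 was well above background on 2 knockout and 1 wild-type arrays only.

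**Figure D4:**
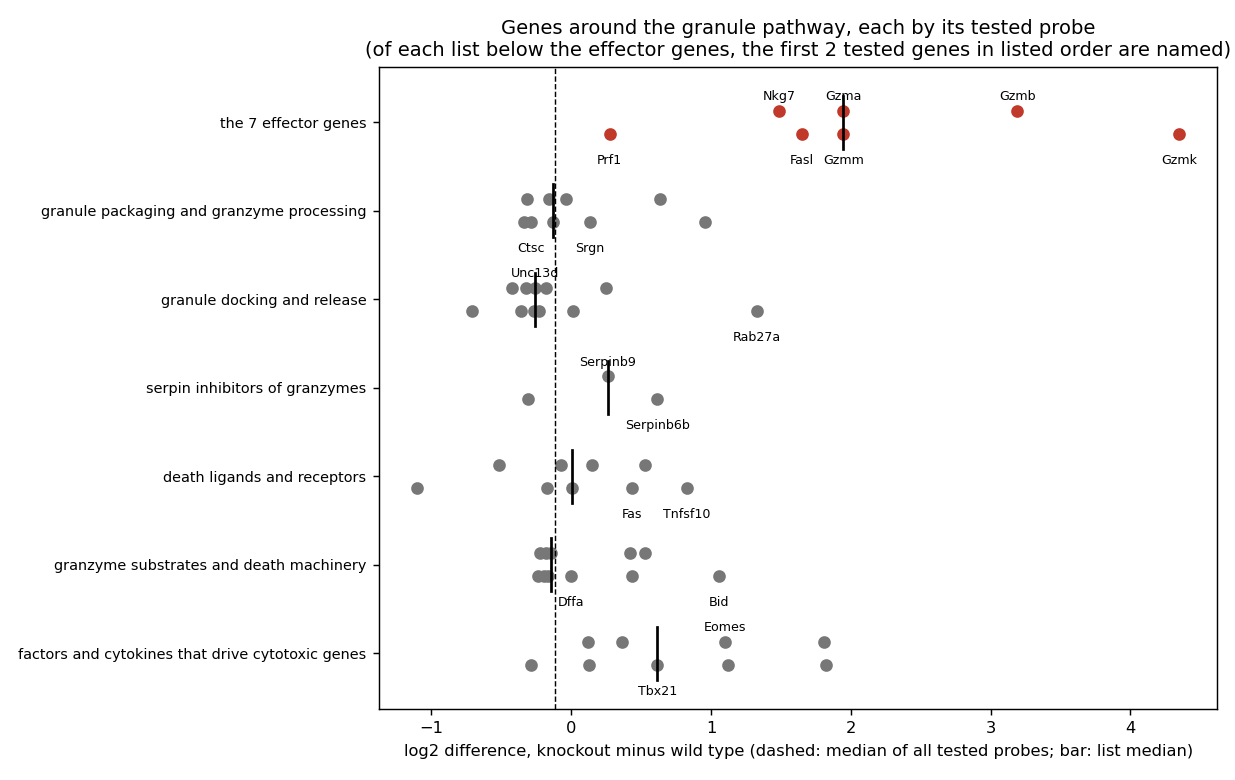
Log2 difference, knockout minus wild type, of the 7 effector genes (red) and of the tested genes of 6 surrounding lists (grey), 1 point a gene, with a bar at the median of each list and a dashed line at the median of all tested probes. The effector genes have a median of 1.95, while list medians run between -0.26 and 0.62.

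Most markers of NK and T cells also read higher in knockout. Of 13 tested NK cell markers, 12 lay above 0, with a median of 1.10. Sums were taken over every listed marker with a probe, tested or not, each by its brightest probe. The sum ranged between 37.1 and 64.2 times the 75th percentile on knockout arrays and between 27.3 and 49.4 on wild-type arrays. The defining NK markers were above background in both genotypes: Ncr1 on 3 knockout and 2 wild-type arrays, and Klrb1c and Klrd1 on all 6. They differed by 0.44 ± 0.47, 1.46 ± 0.63 and 0.76 ± 0.63 (SE), each with overlap. Klra8, Klra7 and Eomes, the last also in the list of driving factors, were the NK markers with no overlap, beside 1.20% of tested probes.

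Of 18 tested T cell markers, 16 lay above 0, with a median of 0.91. The summed level of all listed T cell markers with a probe, tested or not, ranged between 69.3 and 140 on knockout arrays. On wild-type arrays it ranged between 47.2 and 92.3. Cd3e, Cd3d and Cd3g, the invariant chains of the T cell receptor complex, were above background on all 6 arrays and differed by 0.23 ± 0.54, 1.06 ± 0.82 and 0.94 ± 0.75 (SE), each with overlap. Without knockout replicate 2 these differences were -0.17, 0.35 and 0.34. Leaving out wild-type replicate 2 put Cd3d at 1.66 and Cd3g at 1.57, and leaving out wild-type replicate 3 put Cd3d at 0.44. T cell markers with no overlap, beside 1.20% of tested probes, included Cd5, Lck and Zap70, and 2 others, Cd247 and Ubash3a, were not above background on any array. The knockout and wild-type ranges of the sums overlapped for both lists, while the mean centred level of the T cell markers was 0.060 or more in knockout and -0.071 or less in wild type.

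Markers of other cells of the spleen were read in the same way, with sums again over every listed marker with a probe, tested or not. Of 8 tested neutrophil markers, 7 lay above 0, with a median of 1.01. Their sums ran between 106 and 440 on knockout arrays and between 59.9 and 290 on wild-type arrays. The defining markers Ltf and Ngp were above background on all 6 arrays. They were the ones of this list with no overlap, beside 1.20% of tested probes. Of 10 mast cell and basophil markers, 4 were tested and lay above 0, with a median of 1.32, the highest of the 10 marker lists, and sums between 1.39 and 6.27 on knockout and between 0.826 and 3.21 on wild-type arrays. Of the defining markers of that list, Cpa3 was above background on 2 knockout and 1 wild-type arrays, Fcer1a on 1 and 0, and Ms4a2 on none. In the same list Cma1 had no overlap, beside 1.20% of tested probes. All 9 tested red pulp macrophage markers lay below 0, with a median of -0.58 and sums between 891 and 969 on knockout arrays and between 959 and 2053 on wild-type arrays. The highest of these sums was that of wild-type replicate 3. Adgre1 and Slc40a1 had every knockout array below every wild-type array, beside 1.88% of tested probes. The medians of the other 5 lists, of B cells, plasma cells, plasmacytoid and conventional dendritic cells and erythroid cells, ran between -0.32 and 0.54. Among their defining markers, Jchain, Sdc1, Siglech, Ccr9, Flt3 and Hba-a1 were above background on all 6 arrays, Cd79a on 2 knockout and 3 wild-type arrays and Zbtb46 on 3 knockout and 2 wild-type arrays. In these 5 lists 1 gene, Klk1 of the plasmacytoid dendritic cell list, was without overlap, lower in knockout, beside 1.88% of tested probes. The part of these markers in the differences of the 7 genes was not tested.

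**Figure D5:**
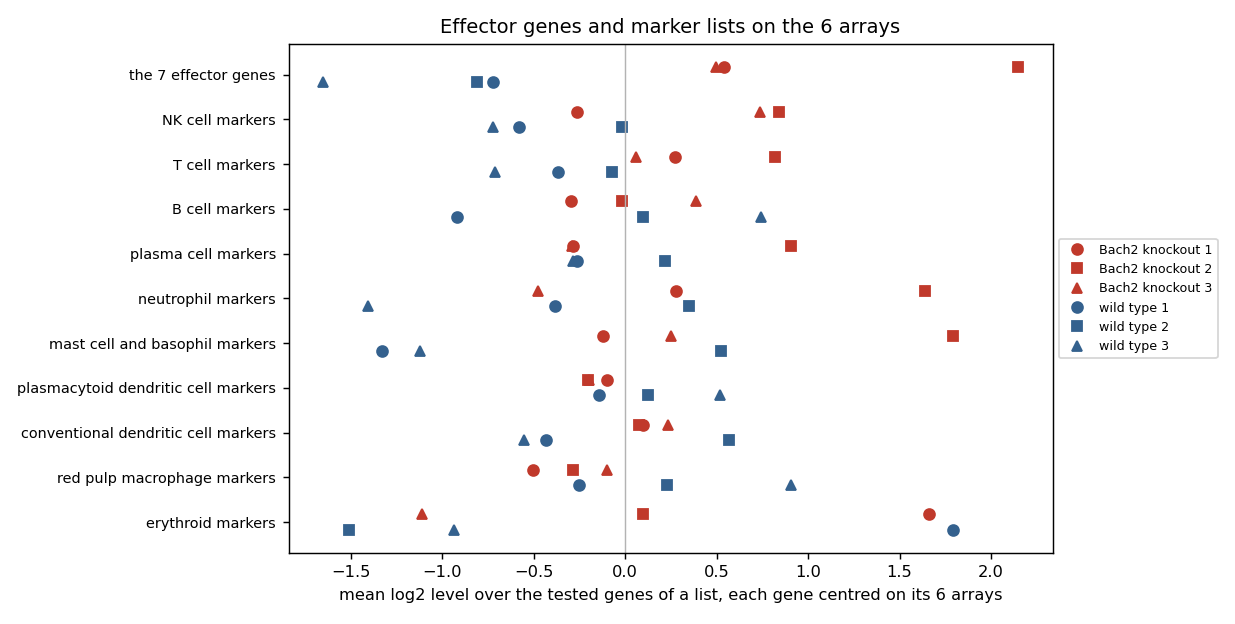
Mean log2 level per array of the 7 effector genes and of each marker list, after centring each gene on its 6 arrays, with knockout arrays in red above wild-type arrays in blue. The 7 effector genes run between 0.50 and 2.15 in knockout and between -1.65 and -0.72 in wild type, while among the marker lists only the T cell markers lie apart, at 0.060 or more in knockout and -0.071 or less in wild type.

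Subtracting the array's mean over the tested NK cell markers, a setting added after the data were seen, left differences of 1.06 for Gzma, 2.31 for Gzmb, 3.47 for Gzmk probe A_55_P2042331, 1.07 for Gzmm, 0.60 for Nkg7 probe A_55_P2009582, 0.77 for Fasl and -0.60 for Prf1. On that scale 2 of the 7 genes, Gzmb and Gzmk by that probe, had no overlap, beside 0.148% of tested probes. Relative to the T cell markers the same differences were 1.18 for Gzma, 2.43 for Gzmb and 3.58 for Gzmk, and relative to both lists together they were 1.13, 2.38 and 3.54. Without overlap were 5 of the 7 genes relative to T cell markers, beside 0.256% of tested probes, and 3 of the 7 relative to both, beside 0.226%. Gzmk enters these counts by probe A_55_P2042331, and its RefSeq probe overlapped on each of these scales. Relative to T cell markers the nearest arrays of Gzma were at 5.74 in knockout and 5.73 in wild type. For Gzmm they were at -0.75 and -0.76, and for Nkg7 probe A_55_P2009582 at 3.47 and 3.45. Prf1 was at -0.49 relative to T cell markers and -0.54 relative to both lists. The subtracted means were themselves higher in knockout, by 0.88 for NK cell markers, 0.77 for T cell markers and 0.81 for both lists. Subtraction therefore lowered the difference of every tested probe by that amount, and the shares without overlap were below the 1.20% found before it. Since the 7 genes were picked on this contrast, nothing is read from the counts and shares on these scales.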

How the data were processed

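RNA of sorted red pulp macrophages was measured on 6 single-colour Agilent arrays, 3 Bach2 knockout and 3 wild type, grouped by the genotype in the labels. Replicates were numbered in record order, which is no pairing of the mice, although the numbers coincide with the array columns. The deposited scanner files hold spot intensity values, which the authors read with Agilent Feature Extraction, version 10.7.3.1 per the file headers and 9.1 per the submitters' processing notes. The deposited processed intensity had its background subtracted and its spatial trend removed, per the file headers, which name mm9 as the build of the array design. The authors' deposited table holds log2 values of 279 probes, which match the log2 processed signal scaled to the 75th percentile and centred on each probe's median, with a largest gap of 0.156.

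From these files, control spots and spots flagged as outliers (141 to 283 an array, set to missing) were left out. The log2 of each spot was taken, the log2 values of a probe's spots were averaged and each array's 75th percentile over probes was subtracted. No spot was saturated. The filter kept probes that at least 3 arrays read well above background and left out 31 of them with a missing value. Names came from RefSeq accessions through a GRCm38 gene table, which named 26414 of 55681 probes, and promoter sequences are RefSeq's. Knockout was set against wild type in limma 3.58.1 (lmFit, eBayes; R 4.3.3) with Benjamini-Hochberg adjustment over all tested probes. The other steps ran in Python 3.11.15, and the fit was tested on simulated data. For a gene with several probes, that of highest mean level stands for it.

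The 7 genes, the pathway and marker lists and the tests were chosen with earlier results of these data known. Named were all 7 genes, the first 4 tested genes of each pathway list, the first 3 (NK, T, mast cell and basophil) or 2 markers of each marker list that have a probe, Bach2, and the 4 genes nearest in profile. Ctsw, Il18r1, Ifng, Klra8, Klra7, Cd5, Lck, Zap70, Cma1, Adgre1, Slc40a1, Klk1, Cd247 and Ubash3a were named after their values were seen, as members of small counts, and so were the neighbouring genes. The values of 2 marker genes are not reported here. Normexp was run on the median spot signal, since the mean signal is not a column of these files.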

Additional observations from a re-analysis of the deposited data

How the results depend on the processing

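Limma called 0 probes at an adjusted p of 0.05 under all 15 alternatives run, with between 130 and 1006 probes at an unadjusted p under 0.05, against 307 in the reported fit. With the array column as replicate block it called 0 probes, with 727 at an unadjusted p under 0.05. Replicate numbers follow record order and coincide with these columns, but the labels pair no mice. The number of genes above 0 was 7 in most settings, 6 without knockout replicate 2 and relative to the marker lists, where Prf1 lay below 0, and 6 of 6 among genes with a probe above background on all 6 arrays, where the RefSeq probe stands for Gzmk and Fasl has none. With the RefSeq probe for Gzmk, a setting added after the data were seen, all 7 genes lay above 0. Leaving out 1 mouse at a time gave between 6 and 7 genes and a median difference between 1.27 and 2.30. Relative to NK cell markers the median was 1.06, and relative to NK and T cell markers 1.13, both settings added after the data were seen. The difference of Prf1 ran between -0.012 and 0.73 with 1 mouse left out and was -0.60, -0.49 and -0.54 relative to NK, T and both marker lists. That of Gzmk probe A_66_P140238 was -0.17, -0.057 and -0.10. Gzmk probe A_55_P2042331 differed by 3.50 after normexp, and it and Fasl were not above background on 1 wild-type array each. Without the mice that share a tag the median was 1.92. No other probe of the 7 genes changed direction in the settings run for it. The median of all tested probes was -0.11 as reported, 0.021 with arrays scaled to their median and -0.025 after quantile normalization.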

Other observations

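Of the genes around the granule pathway, 3 were named after their values were seen because the genotypes did not overlap. Among all tested probes 1.20% were separated in that direction, with every knockout array above every wild-type array. Ifng, the cytokine of activated NK and T cells, read 1.31, 2.20 and 2.37 in knockout, against 0.53, 0.74 and -0.83 in wild type, a difference of 1.81 ± 0.58 (SE). Ctsw read 0.54, 2.34 and 0.58 in knockout, against 0.25, 0.42 and -0.075 in wild type, a difference of 0.96 ± 0.59 (SE), with knockout replicate 2 high as for the effector genes and a difference of 0.36 without it. Il18r1, a receptor subunit for interleukin 18, read -2.79, -0.85 and -1.06 in knockout, against -3.23, -3.31 and -3.63 in wild type, and was well above background on 2 knockout and 1 wild-type arrays. Without knockout replicate 1 its difference was 2.44, against 1.82 over all arrays. None of them passed the limma test after adjustment.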
